A study of Mus musculus with 4 samples.

Results

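The genes described here encode 10 proteins that carry, store or silence mRNA in cytoplasmic granules: the zipcode-binding proteins Igf2bp1, Igf2bp2 and Igf2bp3, the FMRP family Fmr1, Fxr1 and Fxr2, the Staufen proteins Stau1 and Stau2, and the paired hnRNPs Hnrnpr and Syncrip. Their members on the array were taken as every probe set, a group of short probes read as 1 value, whose only gene symbol in the platform annotation was one of these names. This gave 34 of 45037 non-control probe sets, from 9 of the 10 genes. Igf2bp2 had no probe set under that name and is not analysed here. What follows concerns the mRNAs of these proteins, not the proteins themselves.

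Zipcode-binding proteins attach to short elements in the untranslated regions of mRNAs such as that of beta-actin, and in fibroblasts they are known for holding that message silent until it reaches the leading edge. FMRP, the product of Fmr1, and its relatives Fxr1 and Fxr2 bind polysomes and granules, and FMRP is best known as a brake on local translation in neurons. Staufen proteins bind double-stranded stretches of RNA, and hnRNP R and Syncrip (hnRNP Q) are close relatives found in the same transport granules.

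The arrays compared 2 samples of pseudopodia with 2 samples of cell bodies of NIH/3T3, an established line of mouse embryo fibroblasts. In both groups cells with no stated modification, kept without serum, had pushed protrusions for 1 h through a porous membrane that carried fibronectin on its lower side, and were then fixed with 0.3% formaldehyde for 10 min. For pseudopodia the upper side was wiped clean and the lower side collected, for cell bodies the reverse, and crosslinks were undone at 70 °C for 45 min before RNA extraction. No other treatment or genotype entered. The design text calls the samples of a compartment independent, but the labels do not say whether they came from separate cultures. The p-values reflect the spread between these 4 arrays, part of which may be technical. The test weighs a gene's own spread together with 1 pooled over all tested genes, with 2 residual and 2.90 prior degrees of freedom. The separation was mechanical, and the files hold no measure of how much cell body was left among the pseudopodia.

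Intensities lay on a linear scale with a floor of 20, reached by 30.5% to 34.8% of probe sets, and array medians ran from 40.5 to 45.6. Of 10 fibroblast markers, 8 were above the filter on low values (a mean of 42.0), while Thy1 and Postn were at or near the floor. All 8 had differences below 0, with a median of -0.87, and 4 of them were called lower in pseudopodia. The summed level of the list was 42573 and 43494 there against 66164 and 58934 in cell bodies. Of 6 haematopoietic markers, 1 was above the filter, and the list summed to 223 to 255 over the arrays. Of 6 epithelial markers, 5 were above it, led by Krt14, with sums of 2596 to 2683 in pseudopodia and 2892 to 3729 in cell bodies. Krt14 and Epcam were read at probe sets ending in _x_at, whose probes can also match other transcripts. The beta-actin control gave a log2 ratio between its 3′ and 5′ probe sets of 0.56 and 0.65 in pseudopodia and 0.37 and 0.36 in cell bodies. That of the Gapdh control was -0.075 and -0.066 in pseudopodia and -0.095 and -0.098 in cell bodies. The pseudopodia arrays were scanned before the cell body arrays, so scan order and compartment cannot be told apart. The part that marker levels and the 3′ to 5′ ratio have in the differences below was not tested.

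Among the granule proteins, the mRNAs of Fmr1, Fxr1 and Hnrnpr were higher in pseudopodia, each by somewhat under 2-fold, and none of the 9 measured genes was called lower. Each gene was read at its brightest probe set, and limma was fitted to log2(intensity + 1) over all 11320 genes above the filter, with Benjamini-Hochberg adjustment. The 3 called genes are 33.3% of 9, while 5.92% of all tested genes were called higher, 8.69% lower and 14.6% in either direction. The median log2 difference was 0.16 over the 9 genes and -0.0020 over all tested genes. At an unadjusted p under 0.05 there were 4 of the 9 genes (44.4%) and 31.4% of all. As the genes were chosen with earlier results of these data known, these shares describe the members and test nothing. An intensity is a share of the RNA put on an array, so a higher value need not mean more of the mRNA in that compartment. In bulk samples fewer cells of a type and less RNA per cell cannot be told apart.

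**Figure D1:**
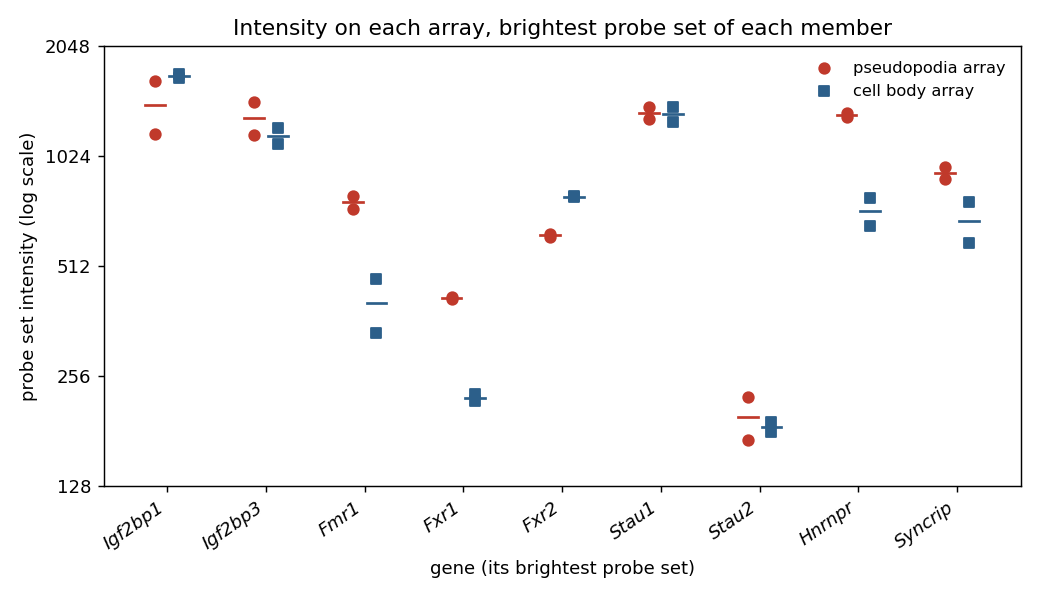
Probe set intensity (log axis) on each of the 4 arrays for the brightest probe set of 9 genes; circles are pseudopodia arrays, squares cell body arrays, and bars the mean of 2 arrays. Pseudopodia lie above cell bodies without overlap for Fmr1, Fxr1, Hnrnpr and Syncrip, and below for Igf2bp1 and Fxr2. These 6 of 9 genes (66.7%) are close to the 60.8% of all 11320 tested genes without overlap in either direction.

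Fxr1 was the member of the FMRP family with the most probe sets called. Its brightest probe set read 416 and 421 in pseudopodia and 228 and 218 in cell bodies. The arrays of a compartment were nearly equal, and those of different compartments were far apart. Fxr1 rose 1.88-fold, a log2 difference of 0.91 (SE 0.13, 95% interval 0.58 to 1.24, adjusted p = 0.0194), which placed it at rank 456 of the 11320 genes from the highest difference down.

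The 3 other probe sets of Fxr1 also lay higher in pseudopodia on every array. One of them (1417598_a_at) read 407 and 432 in pseudopodia against 171 and 151 in cell bodies. Another (1442059_at) read 141 and 144 against 64.9 and 64.6. With each of 22519 probe sets above the filter fitted on its own, these 2 rose by log2 1.37 (SE 0.15) and 1.13 (SE 0.14), with adjusted p of 0.0241 and 0.0243. The dimmest (1436400_at) read 60.7 and 60.0 against 40.8 and 44.7, a difference of 0.49 (SE 0.14) that did not pass at an adjusted p of 0.1001. No other member had more than 1 probe set called. The 4 probe sets of Syncrip above the filter also all lay higher in pseudopodia without overlap, and 1 of them was called. Of all 22519 probe sets, 28.7% lay higher in pseudopodia without overlap.

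Fmr1, whose loss causes fragile X syndrome in humans, read 731 and 797 in pseudopodia and 336 and 472 in cell bodies at its brightest probe set. The compartments did not overlap, but the cell body arrays were well apart from each other. Fmr1 rose 1.92-fold, a log2 difference of 0.94 (SE 0.20, 95% interval 0.41 to 1.47, adjusted p = 0.0461). In the fit of single probe sets the same values had an adjusted p of 0.0598, so this call lies at the edge of the threshold.

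The other probe sets of Fmr1 added little. The second (1452550_a_at) read 46.8 and 109 in pseudopodia and 45.5 and 54.8 in cell bodies, so its difference of 0.51 (SE 0.42, adjusted p = 0.494) rests on 1 pseudopodia array. Without pseudopodia replicate 2 that difference was -0.092. The third (1426086_a_at) was under the filter, at the floor on 3 arrays and at 24.7 on pseudopodia replicate 2.

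Fxr2, the relative whose protein also binds polysomes, lay the other way. Its 1 probe set read 615 and 627 in pseudopodia and 788 and 795 in cell bodies. The arrays of each compartment agree to within a few percent. The log2 difference was -0.35 (SE 0.13, 95% interval -0.68 to -0.02), with an unadjusted p of 0.0396 and an adjusted p of 0.138 from limma. That SE draws in part on a spread pooled over all tested genes. Without a filter on low values it was 0.017, at an adjusted p of 0.0690. Fxr2 is therefore not called lower. Its interval does not reach those of Fxr1 and Fmr1, and the difference between these genes was not tested.

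hnRNP R and Syncrip are close homologues with several RNA-binding domains, and 7 of their 8 probe sets above the filter lay higher in pseudopodia. The brightest probe set of Hnrnpr (1437526_x_at) read 1338 and 1309 in pseudopodia and 658 and 787 in cell bodies. Both pseudopodia arrays were well above both cell body arrays. Hnrnpr rose 1.84-fold, a log2 difference of 0.88 (SE 0.15, 95% interval 0.49 to 1.27, adjusted p = 0.0270). The ending _x_at marks a probe set with probes that can also match other transcripts. Without probe sets ending in _s_at or _x_at, Hnrnpr was read at its next one, and its difference was 0.64 (SE 0.16, adjusted p = 0.0626).

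That next probe set (1427129_a_at) read 989 and 803 in pseudopodia and 569 and 577 in cell bodies. Another (1452030_a_at) read 157 and 196 against 117 and 85.8, without overlap and with a difference of 0.80 (SE 0.23, adjusted p = 0.0912 among single probe sets). The next in brightness (1438807_at) did not follow. It read 49.0 and 90.1 in pseudopodia and 75.6 and 70.9 in cell bodies, a difference of -0.14 (SE 0.32, adjusted p = 0.819), which was 0.30 without pseudopodia replicate 1. The dimmest (1429232_at) was listed at the floor on all 4 arrays.

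Syncrip depends on which of its probe sets is read. The brightest (1426402_at) read 952 and 884 in pseudopodia and 593 and 766 in cell bodies, 1.36-fold apart without overlap. Its log2 difference of 0.45 (SE 0.18, 95% interval -0.0084 to 0.90, adjusted p = 0.165) did not pass, so Syncrip is not among the called genes.

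The next 2 probe sets of Syncrip were farther apart between compartments. One (1428546_at) read 643 and 829 in pseudopodia and 306 and 407 in cell bodies, and the other (1422768_at) read 449 and 387 against 163 and 175. Among single probe sets the first had a difference of 1.05 (SE 0.23, adjusted p = 0.0530). The second rose by log2 1.30, which is 2.46-fold (SE 0.16, adjusted p = 0.0241). A dim one (1422769_at) read 77.6 and 97.5 against 68.2 and 45.5, a difference of 0.63 (SE 0.26, adjusted p = 0.187). The last (1450743_s_at) was under the filter, at 21.2 and 23.4 in pseudopodia and at the floor in cell bodies. With Syncrip taken as the mean of its 4 probe sets above the filter, the gene difference was 0.86 (SE 0.14, adjusted p = 0.0200), past the threshold. The same setting ended the calls of Fmr1, at 0.72 (SE 0.27, adjusted p = 0.140), and Hnrnpr, at 0.54 (SE 0.15, adjusted p = 0.0709), and kept that of Fxr1, at 0.97 (SE 0.13, adjusted p = 0.0158).

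**Figure D2:**
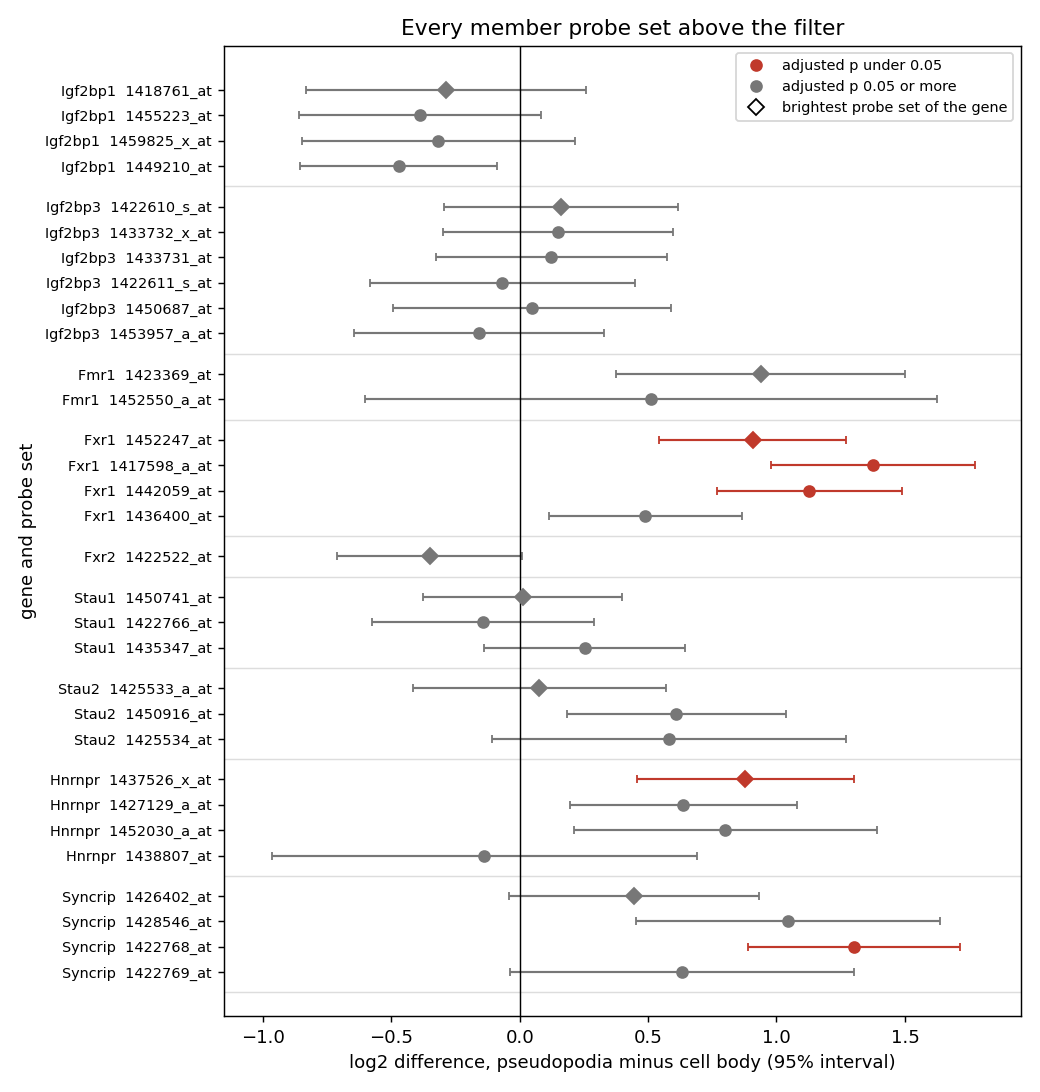
Log2 difference between pseudopodia and cell bodies for the 31 member probe sets above the filter, with 95% intervals from the fit of 22519 single probe sets; diamonds mark the brightest probe set of a gene and red an adjusted p under 0.05. The 5 red points belong to Fxr1 (3), Hnrnpr (1) and Syncrip (1), and the 4 probe sets of Igf2bp1 all lie left of 0.

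The zipcode-binding proteins did not share this pattern. Igf2bp1, the founding member of the family and the binder of the beta-actin zipcode, read 1178 and 1642 in pseudopodia and 1673 and 1719 in cell bodies at its brightest probe set. The cell body arrays were close together and pseudopodia replicate 1 stood below the other 3 arrays. The log2 difference was -0.29 (SE 0.20, 95% interval -0.80 to 0.23, adjusted p = 0.396), and without pseudopodia replicate 1 it was -0.046.

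The other 3 probe sets of Igf2bp1 had differences of -0.32 to -0.47, so its 4 probe sets lay below 0 together. The lowest (1449210_at) read 129 and 116 in pseudopodia against 166 and 174 in cell bodies, without overlap, at an adjusted p of 0.111. It shares its source sequence record with the brightest probe set, so these readings are not independent. None of the 4 was called.

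Igf2bp3, a family member known from embryonic tissue and tumours, was brightest at 1422610_s_at. That probe set read 1171 and 1435 in pseudopodia and 1103 and 1221 in cell bodies. The compartments overlapped. The log2 difference was 0.16 (SE 0.16, 95% interval -0.26 to 0.58, adjusted p = 0.573). Without probe sets ending in _s_at or _x_at, the difference of Igf2bp3 was 0.12 (SE 0.16, adjusted p = 0.666). Its 6 probe sets ran from -0.16 to 0.16, with 4 above 0 and 2 below, and all 6 overlapped between compartments. The far ends of these intervals, -0.80 for Igf2bp1 and 0.58 for Igf2bp3, leave room for moderate differences.

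The Staufen genes lay near 0 at their brightest probe sets. Stau1, which carries mRNA along microtubules and also marks some mRNAs for decay, read 1289 and 1393 in pseudopodia and 1390 and 1272 in cell bodies. The values of the compartments interleave. Its log2 difference of 0.012 (SE 0.14, 95% interval -0.34 to 0.37, adjusted p = 0.966) had the interval's far ends well short of a 2-fold change. It was -0.022 with each array centred on its median, so it has no settled sign. Its other probe sets lay at -0.14 and 0.25.

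Stau2, the Staufen best known from neuronal dendrites, read 171 and 224 in pseudopodia and 191 and 180 in cell bodies, with overlap, and its difference was 0.077 (SE 0.18, 95% interval -0.38 to 0.54, adjusted p = 0.813). That became -0.12 without pseudopodia replicate 2. The next probe set (1450916_at) read 232 and 196 in pseudopodia against 145 and 134 in cell bodies, without overlap. Its difference of 0.61 (SE 0.16) did not pass among single probe sets (adjusted p = 0.0825). The dimmest (1425534_at) read 89.6 and 71.2 against 65.7 and 42.9, a difference of 0.58 (SE 0.26, adjusted p = 0.227).

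Of the 34 member probe sets, 31 passed the filter. Of these, 5 were called higher in pseudopodia (16.1%) and 0 lower, against 4.30% and 7.44% of the 22519 probe sets, and 11.7% in either direction. At an unadjusted p under 0.05 there were 12 of 31 (38.7%), against 29.5% of all. The arrays of the compartments did not overlap at 19 of the 31 probe sets (61.3%), close to the 59.6% of all probe sets, so the absence of overlap alone says little about these genes. By direction, 15 of the 31 (48.4%) lay higher without overlap and 4 (12.9%) lower, where all probe sets gave 28.7% and 30.9%. Probe sets of a gene are not replicates, and 14 of the 34 share a source record with another of the same gene.

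Whether 2 probe sets of a gene differ in their compartment difference was tested on the within-array log2 difference between each other probe set and the brightest one. Of 22 such pairs from 8 members, limma called 0 (0% of all 8065 pairs were called). At an unadjusted p under 0.05 there were 5 of 22 (22.7%), near the 21.4% of all pairs. The lowest p was that of the Syncrip probe set 1422768_at, which exceeded the brightest one in its difference by log2 0.86 (SE 0.16, adjusted p = 0.106). The largest in size was that of the Hnrnpr probe set 1438807_at against the brightest, at -1.02 (SE 0.36, adjusted p = 0.227). Within Fxr1, 1417598_a_at exceeded that gene's own brightest probe set by 0.47 (SE 0.13, adjusted p = 0.173). The Fxr1 probe set 1436400_at went the other way, at -0.42 (SE 0.14, adjusted p = 0.215). The disagreements within Syncrip, Stau2, Hnrnpr and Fxr1 are thus not called, and with 2 arrays a compartment they are not shown to be absent either.

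**Figure D3:**
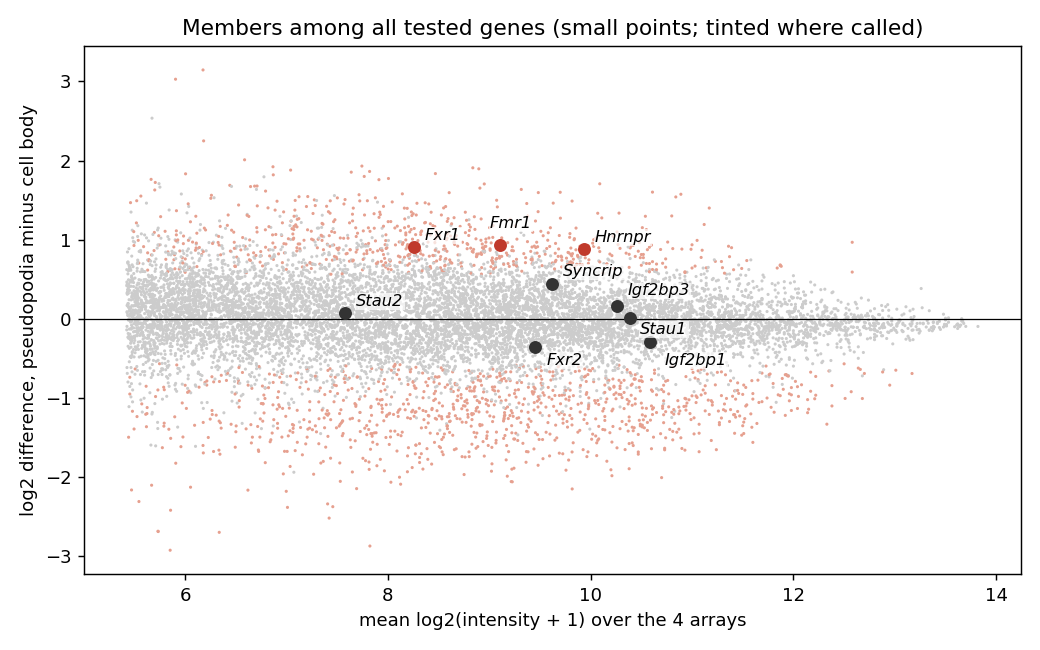
Log2 difference between pseudopodia and cell bodies against mean log2(intensity + 1) for all 11320 tested genes, with the 9 members labelled; tinted points have an adjusted p under 0.05, and red marks the called members. Fmr1, Fxr1 and Hnrnpr lie at 0.88 to 0.94 among the called genes above 0, and the other 6 members lie within the band of genes not called.

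Leaving out an array leaves 1 sample in its compartment, which is then assumed to vary like the samples of the other compartment, and 1 residual degree of freedom. The count of calls over the 11320 genes was then 0 whichever array was left out, so the loss of the calls for Fmr1, Fxr1 and Hnrnpr says nothing particular to these genes. There were 2797 to 2891 genes at an unadjusted p under 0.05. The difference of Fxr1 then stayed at 0.87 to 0.94, with an adjusted p of 0.0914 and 0.0785 without pseudopodia replicates 1 and 2, and of 0.0840 and 0.0841 without cell body replicates 1 and 2. That of Hnrnpr ran from 0.75 to 1.01, with an adjusted p of 0.113 and 0.0969 without pseudopodia replicates 1 and 2, and of 0.105 and 0.0726 without cell body replicates 1 and 2. That of Fmr1 ran from 0.69 without cell body replicate 1 (adjusted p = 0.125) to 1.18 without cell body replicate 2 (0.0689), with an adjusted p of 0.133 and 0.156 without pseudopodia replicates 1 and 2. Without a filter on low values limma called 2 of 18193 genes and none of the members, at adjusted p = 0.202 for Fmr1, 0.0662 for Fxr1 and 0.112 for Hnrnpr. Fxr2, which lay lower at -0.35, had an adjusted p of 0.0690 in that setting, below those of Hnrnpr and Fmr1.

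The companions of these proteins in granules and transport held no gene that passed the test. Of 71 genes in 6 lists, 61 were above the filter, 3 were under it and 7 had no probe set of their own symbol. Limma called 0 of the 61, against 14.6% of all tested genes. At an unadjusted p under 0.05 there were 15 of 61 (24.6%), against 31.4% of all. The median of their absolute log2 differences was 0.26, close to the 0.28 of all genes. With a stricter filter, at a mean intensity of 100, limma called 8 of 56 (14.3%), of which 4 were higher and 4 lower, so the 0 depends on the filter. At that filter 24.5% of all 9030 genes were called.

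Stress granule genes had a median log2 difference of -0.13, with 4 above 0 and 7 below. Pabpc1, the cytoplasmic poly(A)-binding protein and the brightest of them, read 9869 and 8664 in pseudopodia and 10635 and 9644 in cell bodies, with overlap. Processing body genes had a median of 0.14, with 7 of 11 above 0. Their brightest, the helicase Ddx6, read 2210 and 2673 in pseudopodia and 1255 and 2076 in cell bodies, a difference of 0.59 (SE 0.28, adjusted p = 0.227).

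Among 19 other localization and silencing factors the median was 0.26, with 12 above 0 and 7 below, and none called. The brightest, the mRNA-packaging protein Ybx1, read 8261 and 7984 in pseudopodia and 7270 and 7312 in cell bodies, a difference of 0.16 (SE 0.13, adjusted p = 0.471). Exon junction and export genes had a median of -0.10 over 6 genes, with the export adaptor Alyref brightest at a difference of -0.16. Among partners of FMRP and of microRNA silencing, Cyfip1 had no probe set of its own symbol. Cyfip2 lay at the floor on all 4 arrays. The other 5 genes of that list had a median of 0.10. Ago2, the slicing Argonaute and their brightest, read 1690 and 1894 in pseudopodia and 2021 and 2553 in cell bodies, a difference of -0.34 (SE 0.17, adjusted p = 0.254).

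The mRNAs known as cargo of the member proteins were not called in either direction. Their median over 9 genes was -0.15, with 3 above 0. At an unadjusted limma p under 0.05 there were 3 of the 9 (33.3%), all of them below 0, against 31.4% of all tested genes. Some of the list were dim, down to a reading of 46.8, near the filter at a mean of 42.0. Actb, the zipcode message itself, read 10295 and 9770 in pseudopodia and 11068 and 11183 in cell bodies on a probe set close to the highest intensities, where a difference may be compressed. Its log2 difference was -0.15 (SE 0.13, adjusted p = 0.494). Chosen after its values were seen, Cd44, a surface receptor whose mRNA Igf2bp proteins bind, was the farthest from 0, at 2356 and 3432 in pseudopodia against 4728 and 5380 in cell bodies, a difference of -0.83 (SE 0.22, adjusted p = 0.0723).

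**Figure D4:**
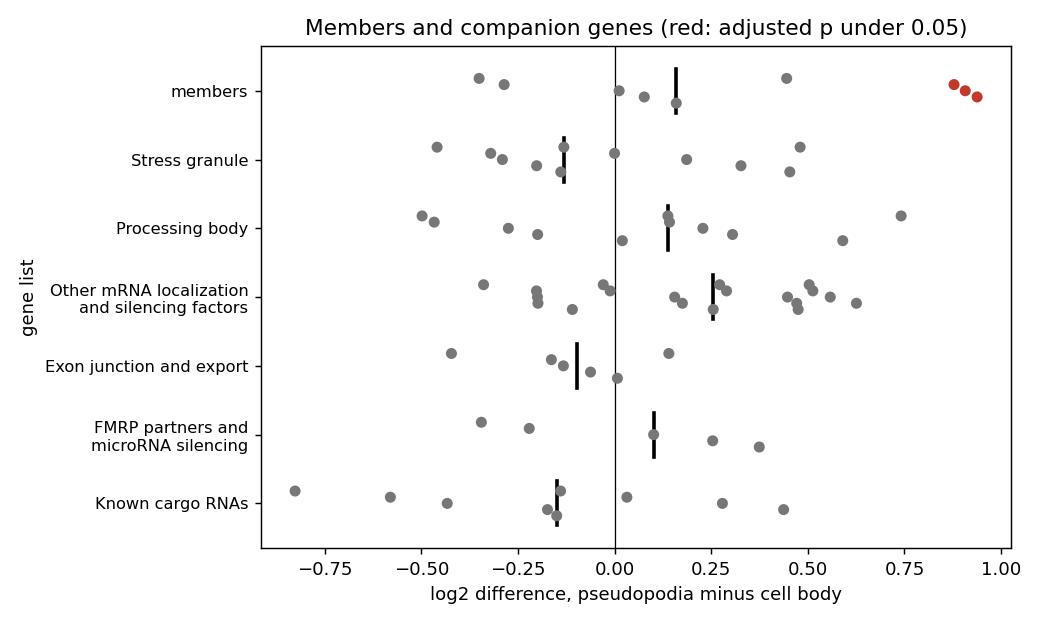
Log2 difference between pseudopodia and cell bodies at the brightest probe set, 1 point per gene, for the 9 members and for 61 companion genes in 6 lists; black bars are medians and red points have an adjusted p under 0.05. The 3 red points are the members Fmr1, Fxr1 and Hnrnpr, to the right of every companion gene.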

How the data were processed

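The members and the companion lists were chosen with earlier results of these data known. The authors deposited probe set intensity values, linear by their range (summary of probes and scaling of arrays: not given in the sources used here). Biotin labelling is stated per the labels' protocols. The array records, which hold other settings of the instruments, give 1 chip lot, 1 scanner and 1 scan day, per the file headers. No scaling was added. Folds were taken from differences of log2(intensity + 1), which understates changes of dim genes.

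Of 45101 probe sets, 64 controls were left out; 34945 carried 1 symbol in the platform annotation, 932 several and 9160 none. All 10 member symbols were found in RefSeq's gene table of GRCm38.p6. Each of 18193 genes was read at its brightest probe set, and the 11320 with a mean of at least log2 5.42, the median over probe sets, were tested with limma 3.58.1 in R 4.3.3 (two-sided, 2 residual and 2.90 prior degrees of freedom, adjusted p threshold 0.05). Single probe sets and within-gene pairs were fitted likewise. The code was tested on simulated data. All members were named, and of each companion list the brightest tested gene and up to 3 called genes. Permuting 4 arrays cannot reach a p below 0.333, so it was not done. Same-numbered samples deviated from their compartment means with a correlation of 0.34, but no label says that the numbers pair them. The number of arrays limits the precision. Alternatives changed the pseudocount, scaling, filter, choice of probe set, replicate block and arrays used.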

Additional observations from a re-analysis of the deposited data

How the results depend on the processing

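Of 108 recalculated gene differences, 85 kept their direction and side of the threshold, 18 lost and 1 gained a call, and 4 changed sign. The 3 calls among members held with a pseudocount of 16, quantile normalization, median centring and a filter at a mean intensity of 100. None of them held without a filter (0 member genes called). With the mean of a gene's probe sets 2 member genes were called, of the 3 only Fxr1, beside Syncrip. Without _s_at and _x_at probe sets 2 were called, Fmr1 and Fxr1. Member probe sets called, 5 in the main setting, were 8 with a filter at 100 or median centring and 1 without a filter. Companion genes called, 0 in the main setting, were 8 with a filter at 100, 2 with the mean of probe sets, quantile normalization or the replicate block, and 1 with median centring. Over all features, calls without a filter were 2 for genes and 73 for probe sets, and pairs called were 12 with a filter at 100. With quantile normalization the split of all gene calls was 840 higher and 896 lower, against 670 and 984. Leaving out 1 array gave 0 calls for each of these counts, whichever array it was. The cause was not tested.

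With the replicate block all genes called were 2202, member genes 3 and member probe sets 7; since the samples share only a number, no pairing is claimed. Stau1 changed sign with median centring (-0.022) and ran from -0.052 to 0.076 with 1 array left out. Other differences changed sign only with 1 array left out: Stau2 ran from -0.12 to 0.27, Fmr1 1452550_a_at from -0.092 to 1.11 and Hnrnpr 1438807_at from -0.57 to 0.30. The Igf2bp3 probe sets ran from -0.28 to 0.14 (1422611_s_at), -0.35 to 0.029 (1453957_a_at), -0.19 to 0.28 (1450687_at) and -0.011 to 0.26 (1433731_at). None of these 8 was called in any setting. Values near the floor of 20 limit what the dimmest probe sets can show.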
